A study of Mus musculus with 5 samples.

Results

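CpG methylation of parthenogenetic primordial germ cell-like cells (the library labelled pESC-PGCLC) was set against that of primordial germ cells from the fetus (the library labelled PGC), region by region. The regions compared were all those that each of the study's 5 libraries lists in the CpG context. These were 154711 of the 176303 regions listed in any library, in 8 classes. The classes near genes were 20388 promoters, 20707 exons, 19966 introns, 11654 5' UTRs and 4445 3' UTRs. The rest were 14214 CpG islands (CGIs), 16696 CGI shores (flanks of islands) and 46641 repeat entries.

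The study measured DNA methylation in mouse cells of strain C57BL6 by reduced representation bisulfite sequencing, in which MspI cuts the DNA at CCGG sites and bisulfite converts unmethylated cytosines. The PGC library came from E12.5 gonads, from which cells were taken with magnetic beads against the surface antigen SSEA1; the labels do not state the sex of the fetuses. The pESC-PGCLC library came from a parthenogenetic embryonic stem cell line (pESC), whose genome is of egg origin alone. That line was grown on feeder cells in serum with LIF, kept for some passages in t2iL, a medium of kinase inhibitors and LIF, and turned into epiblast-like cells in 46 h with activin A and bFGF. It was then cultured for 4 days with BMP4, LIF, SCF and EGF and sorted for cells positive for both CD61 and SSEA1. ESC-PGCLC, the same culture from a female embryonic stem cell line (female ESC) with genomes of both parents, and the stem lines before induction serve as reference. The design text names a comparison of methylation among PGC and both kinds of germ cell-like cells. Each group had 1 library, from 1 line or 1 bead selection, so every difference below describes a pair of libraries, with no replicate error and no test. Read depth is unknown because the values are levels without read counts.

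Primordial germ cells are the founders of eggs and sperm. In the mouse fetus they are known to lose most of the DNA methylation of the epiblast. The loss includes the marks at imprinted genes, which lie on the allele of a single parent. It also includes the marks that keep meiotic and piRNA genes silent in other cells. Germ cell-like cells of this kind of culture are regarded as a counterpart of earlier germ cells, before that loss is complete. Imprinted islands methylated in the egg are marked on both alleles of a parthenogenetic genome and on the maternal allele of a biparental genome.

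The library labelled PGC did not have the near absence of methylation for which germ cells of this age are known. It had 40.8% over repeats, 52.1% at the imprinted island of Airn and 41.2% at that of the meiotic gene Sycp3. No measurement of its cell makeup was at hand, and the share of other gonadal cells after bead selection was not tested. It is therefore called by its label. Every difference below rests on it, and levels of other libraries are given beside some of the results.

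The sequences below are promoter windows of 3 imprinted and 3 germline genes on which the account turns, from 250 bases before to 50 bases after the RefSeq start site (RefSeq, GRCm38.p6), 5' to 3' on the gene's strand. Capitals mark every CpG site of the window. The deposited values are levels of whole regions, so which of these sites were read cannot be told. The imprinted genes are Zrsr1 (chr11:22971755-22972054, plus strand, 10 CpG), Nap1l5 (chr6:58907077-58907376, minus strand, 17 CpG) and Plagl1 (chr10:13090582-13090881, plus strand, 26 CpG). The germline genes are Sycp3 (chr10:88459337-88459636, plus strand, 15 CpG), Dazl (chr17:50293571-50293870, minus strand, 28 CpG) and Dpep3 (chr8:105979370-105979669, minus strand, 12 CpG).
Zrsr1: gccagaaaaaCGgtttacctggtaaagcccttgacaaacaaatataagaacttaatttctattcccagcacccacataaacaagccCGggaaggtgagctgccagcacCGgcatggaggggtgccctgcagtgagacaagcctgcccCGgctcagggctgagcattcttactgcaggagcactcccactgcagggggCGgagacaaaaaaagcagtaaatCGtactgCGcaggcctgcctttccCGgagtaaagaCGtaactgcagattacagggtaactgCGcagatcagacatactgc
Nap1l5: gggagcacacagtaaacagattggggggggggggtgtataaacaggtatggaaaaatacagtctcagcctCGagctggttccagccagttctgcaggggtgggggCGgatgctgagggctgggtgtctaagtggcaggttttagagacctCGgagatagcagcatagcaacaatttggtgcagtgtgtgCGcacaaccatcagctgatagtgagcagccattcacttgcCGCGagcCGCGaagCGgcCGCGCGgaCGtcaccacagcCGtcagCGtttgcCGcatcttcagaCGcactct
Plagl1: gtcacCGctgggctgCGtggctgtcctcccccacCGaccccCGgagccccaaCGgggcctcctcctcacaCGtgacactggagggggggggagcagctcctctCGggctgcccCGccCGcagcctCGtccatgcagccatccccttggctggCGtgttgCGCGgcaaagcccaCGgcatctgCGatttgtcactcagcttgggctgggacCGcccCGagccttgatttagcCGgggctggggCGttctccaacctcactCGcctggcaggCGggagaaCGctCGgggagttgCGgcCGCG
Sycp3: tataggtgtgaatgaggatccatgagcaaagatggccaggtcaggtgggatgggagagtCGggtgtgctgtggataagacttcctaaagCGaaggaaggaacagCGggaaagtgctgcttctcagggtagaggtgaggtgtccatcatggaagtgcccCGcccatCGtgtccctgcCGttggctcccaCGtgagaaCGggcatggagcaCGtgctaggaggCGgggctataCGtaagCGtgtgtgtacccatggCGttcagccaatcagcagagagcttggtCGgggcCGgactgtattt
Dazl: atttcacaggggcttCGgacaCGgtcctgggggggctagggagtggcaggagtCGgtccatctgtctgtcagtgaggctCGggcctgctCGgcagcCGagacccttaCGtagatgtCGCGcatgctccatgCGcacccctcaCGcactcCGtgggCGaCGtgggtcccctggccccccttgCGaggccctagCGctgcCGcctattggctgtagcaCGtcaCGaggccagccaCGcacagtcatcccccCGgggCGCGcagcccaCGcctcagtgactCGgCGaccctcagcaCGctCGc
Dpep3: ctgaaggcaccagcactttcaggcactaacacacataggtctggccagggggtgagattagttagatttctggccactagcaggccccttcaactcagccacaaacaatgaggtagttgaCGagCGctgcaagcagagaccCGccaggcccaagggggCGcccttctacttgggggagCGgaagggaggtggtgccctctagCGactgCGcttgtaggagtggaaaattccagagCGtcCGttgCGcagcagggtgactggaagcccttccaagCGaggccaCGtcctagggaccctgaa
The Plagl1 window lies wholly inside its measured island. The others share 81 bases (Zrsr1), 71 (Nap1l5), 143 (Sycp3), 221 (Dazl) and 180 (Dpep3) with theirs, so a level of the island is not the level of the window alone.

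Methylation was slightly higher in pESC-PGCLC than in PGC throughout, in all 8 region classes. Over repeats the mean level was 43.2% in pESC-PGCLC and 40.8% in PGC, a difference of 2.39 percentage points. Over 3' UTRs it was 35.9% against 33.5% (2.42 points), over introns 25.1% against 23.7% (1.46 points) and over exons 19.4% against 18.2% (1.16 points). The classes near gene starts, most of which are little methylated, were closer: promoters had 14.6% against 13.8% (0.87 points) and shores 12.1% against 11.3% (0.76 points). The median difference was 0.28 points in promoters, 0.38 in shores, 0.40 in exons, 0.90 in introns and 0.17 in 5' UTRs, each below its mean by over 1.5 times. The 5' UTRs had 4.32% against 4.00% (0.32 points) and CGIs 3.59% against 3.41% (0.18 points). Measured against the PGC level these gaps were alike, between 5.33% of it in CGIs and 8.0% in 5' UTRs. Each gap was smaller than the spread of the differences over the regions of its class, whose SD ran from 1.48 points in CGIs to 7.15 points in repeats.

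**Figure D1:**
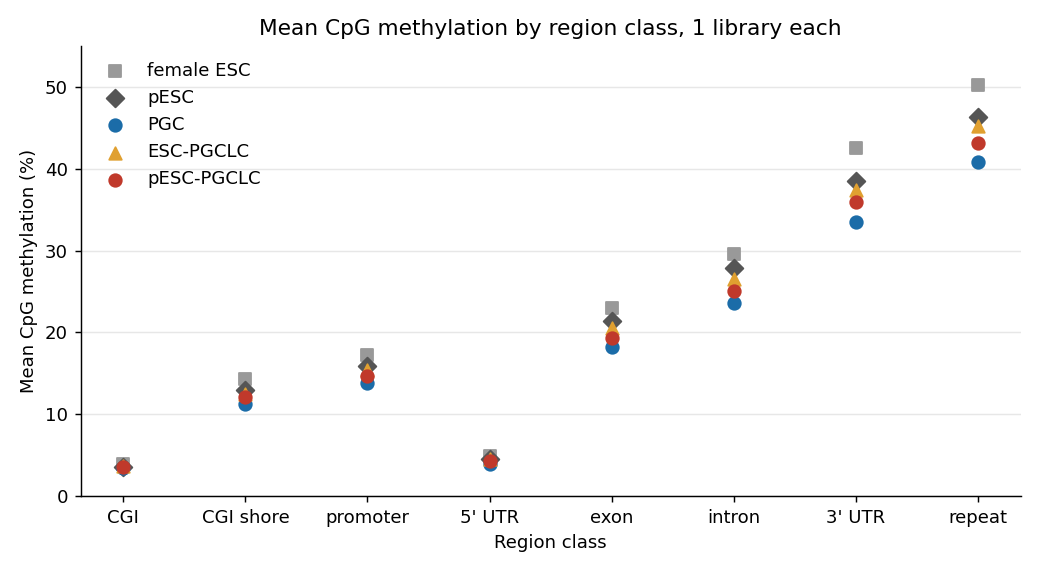
Mean CpG methylation (%, vertical axis) in each region class (horizontal axis), with 1 point per library. In each class the pESC-PGCLC point lies just above the PGC point, by 0.18 points in CGIs and by 2.39 points in repeats.

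Most regions had close to the same level in both libraries. The share of regions within 5 points was 98.1% in CGIs, 95.9% in 5' UTRs, 88.4% in promoters and 61.9% in repeats. The share that was higher in pESC-PGCLC ran from 60.6% in 5' UTRs to 70.0% in 3' UTRs. Across regions, which are not replicates, the levels of the pair had a Pearson correlation from 0.927 over repeats to 0.986 over promoters.

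Absolute distances between libraries place the pair. The mean absolute difference between pESC-PGCLC and PGC was 0.66 points in CGIs, 1.94 in promoters, 2.55 in introns and 5.22 in repeats. From pESC-PGCLC to ESC-PGCLC it was slightly smaller, at 0.65, 1.92, 2.51 and 5.01 points. From pESC-PGCLC to its own starting line, pESC, it was 0.68, 2.33, 3.68 and 5.50 points. Of the other 4 libraries, pESC-PGCLC was the nearest to PGC by this measure in all 8 classes. Against the same PGC library, the mean difference of ESC-PGCLC was 0.26 points in CGIs, 1.66 in promoters and 4.49 in repeats, and that of pESC was 0.15, 2.10 and 5.50 points; these comparisons share PGC.

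The gap between pESC-PGCLC and PGC widened with the level of methylation. Regions were binned by their level in female ESC, a library that enters neither side of the difference. Promoters below 5% in female ESC had a mean difference of 0.09 points, those at 20 to 40% had 1.32 points, those at 40 to 60% had 2.80 points and those at 60 to 80% had 3.91 points. Introns gave 0.03, 1.34, 2.70 and 3.86 points in the same bins, and shores 0.14, 1.46, 3.01 and 4.33 points. At 80 to 100% the classes lay between 3.96 points (promoters) and 7.80 points (5' UTRs, with 22 regions).

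The regions with little methylation in female ESC included some that were lower in pESC-PGCLC. The 2106 repeat entries below 5% in female ESC averaged 7.65% in pESC-PGCLC and 8.46% in PGC, and 38.2% of them were higher in pESC-PGCLC. The 3314 entries at 5 to 20% averaged 13.5% and 14.1%. The 3' UTRs of those bins had differences of -0.34 and -0.50 points, and CGIs at 20 to 40% had -0.32 points. In the lowest repeat bin, PGC was also above pESC (7.19%) and ESC-PGCLC (7.20%).

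**Figure D2:**
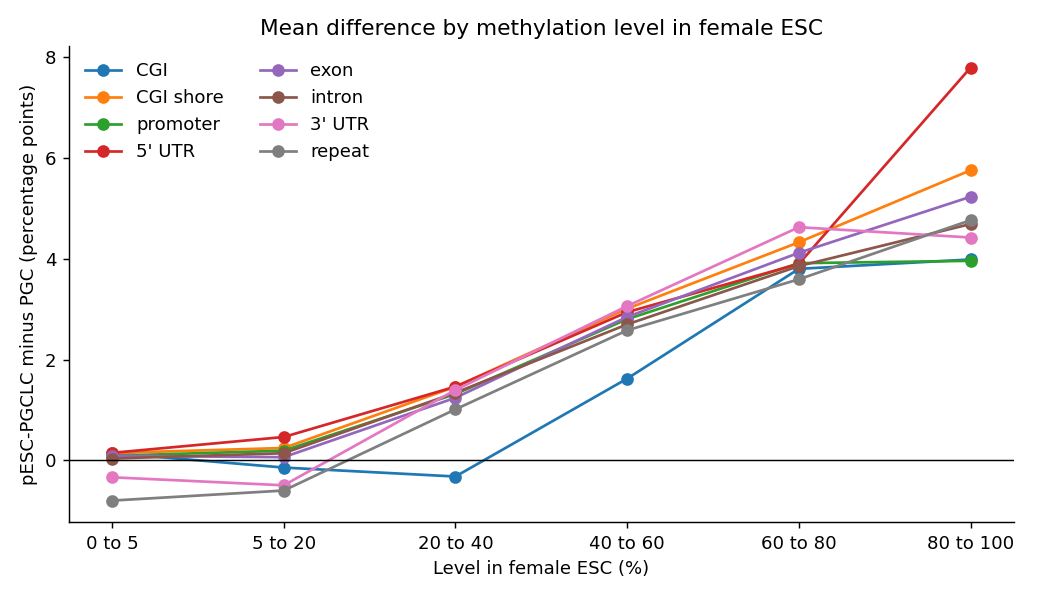
Mean difference in percentage points, pESC-PGCLC minus PGC (vertical axis), in bins of the level in female ESC (%, horizontal axis), with 1 line per region class. Lines stay near 0 in the lowest bins, with repeats at -0.80 points, and lie between 3.59 points (repeats) and 4.63 points (3' UTRs) at 60 to 80%.

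Large differences were rare. A region was counted where the levels were at least 25 points apart. No CGI was higher in pESC-PGCLC to that degree (0%) and 3 were lower (0.0211% of CGIs). Among shores 14 were higher (0.0839%) and 4 lower (0.024%), and among promoters 14 were higher (0.0687%) and 6 lower (0.0294%). In 5' UTRs 3 were higher (0.0257%) and 1 lower (0.00858%), in exons 23 (0.111%) and 14 (0.0676%), and in introns 11 (0.0551%) and 7 (0.0351%). The 3' UTRs had 16 higher (0.36%) and 6 lower (0.135%), and repeats 376 higher (0.806%) and 176 lower (0.377%). In every class but CGIs the higher regions outnumbered the lower ones in levels as deposited. With the shift of the class taken out as 1 factor, promoters had 10 higher and 10 lower and shores 11 and 9. Of the 552 repeat entries counted, 169 were listed at exactly 0 or 100% in some library, against 3.09% of all repeat entries. At the edge of the threshold, the nearest of the higher shores had 25.7 points just inside and 24.5 points just outside, and, among promoters lower in pESC-PGCLC, -25.2 and -24.9 points.

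The 3 islands far lower in pESC-PGCLC were short and lay inside genes; 1 was left when levels of exactly 0 or 100% were set aside, and 0 when islands of at most 400 bp were. The island in Ocstamp, a gene of osteoclast fusion (chr2:165396057-165396266 in mm10), had 51.8% in PGC and 22.4% in pESC-PGCLC, with 24.5% in pESC and 30.2% in ESC-PGCLC. The island in Kdm2b, a histone demethylase gene (chr5:122880318-122880520), had 43.4% in PGC and 15.4% in pESC-PGCLC. The island in Rapgef2, an exchange factor gene of Rap GTPases (chr3:79066572-79066779), had 35.7% and 10.3%. In all 3, PGC was the highest of the 5 libraries, which choosing by the difference from PGC favours. Next in size came islands in Spopl (42.2% in PGC, 21.3% in pESC-PGCLC), Prrc1 (34.5% and 14.5%), Ctdsp2-ps (21.4% and 1.82%), Clstn2 (49.1% and 32.7%), Grm2 (55.7% and 39.4%), Trim52 (49.0% and 33.9%) and Gm5522 (31.3% and 17.8%).

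Among islands listed in all 5 libraries, those higher in pESC-PGCLC differed by at most 19.12 points; among islands common to the pair, 4 were higher by at least 25 points. That value belonged to an island in Anp32a, the gene of an acidic nuclear phosphoprotein (chr9:62363708-62363954), with 5.88% in PGC and 25% in pESC-PGCLC. Tmem125 (chr4:118541901-118542148) had 51.8% and 70.8%, Tshz3, a zinc finger homeobox gene, 46.6% and 62.7%, and Fat1, an atypical cadherin gene, 57.9% and 73.7%. The others of the 10 with the widest gaps were in Wbp11 (39.5% and 53.8%), Kcnq1ot1 (described below), Kat2a (51.2% and 64.3%), Kcnd3 (52.4% and 65.2%), Zc3h7b (22.8% and 35.4%) and Tas1r1 (16.1% and 28.3%). All of these except Kcnq1ot1 had their lowest level of the 5 libraries in PGC. Ranking by the difference from PGC favours a low PGC here and a high PGC among the lower islands, so this is description only.

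Shores had wider gaps than islands, several of them with a level of exactly 0 or 100% in a library. The shore at the start of Sfswap, a splicing factor gene, was at 46.2% in PGC and 100% in pESC-PGCLC, that of Lmtk2 at 0% and 48.5%, and that inside Kcnn1 at 0% and 44.4%. The shore inside Bmp8a, the gene of a BMP ligand (chr4:123320417-123322417), was at 20.0% in PGC against 65.4% in pESC-PGCLC, 60.2% in pESC and 74.3% in ESC-PGCLC. The other 6 of the 10 shores with the widest gaps were at Zbtb33 (14.3% and 45.5%), Dlg3 (24.0% and 53.8%), Dpp9 (0% and 28.6%), Zfp612 (33.3% and 61.5%), Arhgef17 (50.0% and 77.8%) and Phpt1 (3.37% and 30.6%). The shore inside Trio was the most reduced in pESC-PGCLC (59.1% in PGC, 20.0% in pESC-PGCLC). It was followed by shores at Gipc3 (52.5% and 22.5%), at chr13:83745334-83747335 with no gene (32.4% and 4.35%), at Gm1943 (36.8% and 10%) and at Hdhd3 (42.1% and 18.2%). Mei1, a gene of meiotic recombination, had a shore at 43.3% in PGC and 19.8% in pESC-PGCLC (chr15:82070309-82072310), and Mid1 on the X chromosome had 55.8% and 32.2%. The last of the 10 lower shores were at Kif5c (27.3% and 4.35%), Sar1a (67.4% and 46.3%) and Slc25a24 (80% and 59.2%).

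Most imprinted genes whose methylation comes from the egg had a higher level in pESC-PGCLC than in PGC, while 3 of them were below 5% in both libraries. Of 22 such genes listed, 18 had a measured island or shore, of which Peg10 and Sgce share 1; 14 were higher in pESC-PGCLC and 4 lower, with a median difference of 3.01 points. With regions placed at either end of every gene the median was 1.59 points. A majority was also higher among all genes with a region, at 69.2%. By at least 10 points, 4 of the 18 were higher, against 0.19% of the 12124 genes with a region, and 0 were lower, against 0.0742% of genes. Most genes have unmethylated regions that leave little room for a difference. Of the 415 genes with a mean of at least 10% over the pair of stem lines, 65.3% were higher in pESC-PGCLC. By at least 10 points 5.30% of them were higher, and their median difference was 1.60 points. No imprinted gene differed by 25 points. Of the 4 without a region at the start, Impact and Cdh15 had regions farther inside and Snrpn and Nespas had no measured region.

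The widest gap was at the shore of Gnasas1, described further on, followed by Kcnq1ot1, Mest and Peg13. Kcnq1ot1, a noncoding RNA antisense to Kcnq1 (chr7:143295404-143295824), was at 61.7% in PGC and 75.0% in pESC-PGCLC. Its level was 67.7% in pESC but 20.5% in ESC-PGCLC and 16.7% in female ESC. Airn, the antisense RNA that silences Igf2r (chr17:12741440-12742489, inside Igf2r), was at 52.1% and 62.1%, and Peg13, a noncoding RNA gene inside Trappc9, at 63.2% and 74.2%. The shore in Mest, a hydrolase gene expressed from the paternal allele (chr6:30738499-30740500), had 36.9% and 48.4%.

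Smaller gaps in that direction were at Peg3, a zinc finger gene (50.3% in PGC and 58.8% in pESC-PGCLC), Zrsr1, a retrogene in an intron of Commd1 (35.1% and 43.0%), and Nap1l5, a retrogene inside Herc3 (46.0% and 53.4%). Nnat, which encodes a membrane proteolipid, had 19.9% and 24.8%, and the island of Peg10 and Sgce 33.1% and 34.3%. In all of these the pESC-PGCLC level was far above that of ESC-PGCLC, which was at 1.61% at Zrsr1, 14.5% at Nap1l5 and 3.22% at Peg10. Female ESC, the line before induction, was already at 1.60%, 22.8% and 3.25% at these genes. Plagl1, a zinc finger gene, was lower in pESC-PGCLC, at 24.8% and 22.7%. It was at 28.7% in pESC, 2.47% in ESC-PGCLC and 1.35% in female ESC. Mcts2, a retrogene inside H13, was at 9.22% and 4.90%, and the shore of the amino acid transporter gene Slc38a4 at 6.74% and 4.11%.

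At several imprinted genes the start of the gene is not where the mark of the egg lies. The islands at the starts of Igf2r (3.20% in PGC and 1.71% in pESC-PGCLC), Grb10 (1.70% and 1.93%) and Gnas (3.65% and 4.04%) were nearly unmethylated in both libraries, and that of Inpp5f had 8.33% and 8.94%. Islands farther inside these genes had intermediate or high levels. Within Gnas, the gene of a G protein subunit, chr2:174297262-174297532 was at 37.3% and 44.7%, and chr2:174298463-174300644 at 51.5% and 56.0%. The inner island of Inpp5f (chr7:128687969-128688582) was at 35.2% and 41.8%, that of Grb10, which encodes a growth factor receptor adaptor (chr11:12025554-12026580), at 19.9% and 22.6%, and the island inside Impact at 39.8% and 47.1%. In Cdh15, a cadherin gene, the inner island was at 66.6% and 66.8%. A short inner island of Zrsr1 (chr11:22973116-22973331) was at 22.6% and 21.5%, and the island shared by Gnas and Gnasas1 at chr2:174284647-174285390 at 4.25% and 3.25%. The shore shared by Gnas and its antisense RNA Gnasas1 (chr2:174295261-174297261) had the widest gap, with 6.78% in PGC, 21.1% in pESC-PGCLC and 40.9% in pESC.

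**Figure D3:**
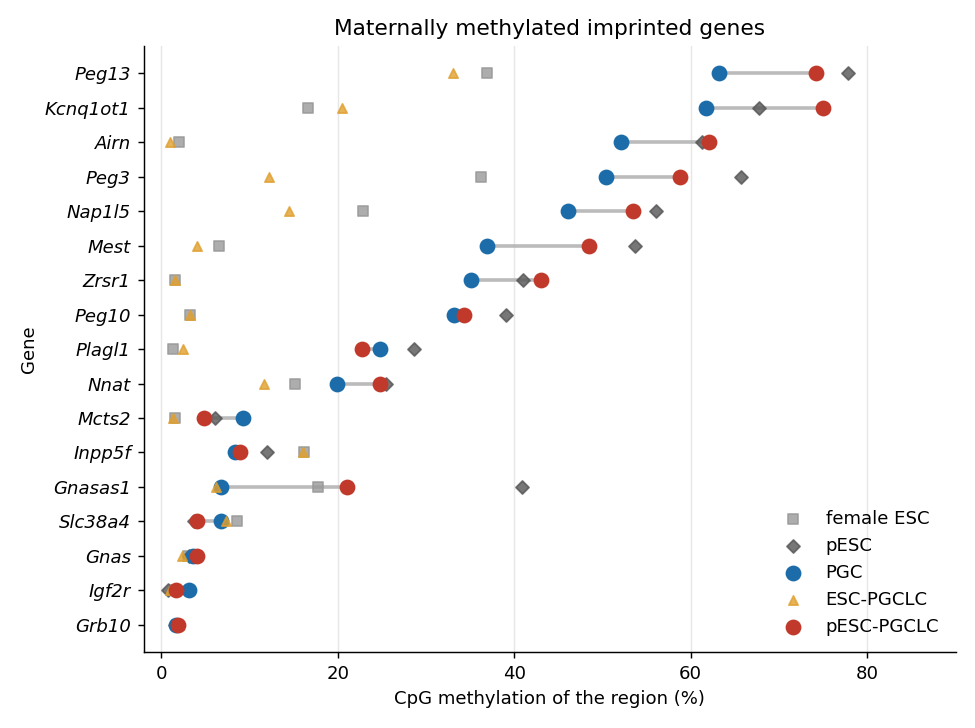
CpG methylation (%, horizontal axis) of the region at each measured maternally methylated imprinted gene (vertical axis, ordered by PGC), with 1 point per library and a grey bar from PGC to pESC-PGCLC; Sgce shares the Peg10 island and is not drawn. At Airn, PGC (52.1%), pESC (61.2%) and pESC-PGCLC (62.1%) lie together, far from ESC-PGCLC (1.03%) and female ESC (2.01%).

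The islands at these genes were also divided by the level of the stem line pESC against that of female ESC. Neither is a library of the pair, but pESC is the line from which pESC-PGCLC was made. Choosing islands high in pESC therefore favours islands high in pESC-PGCLC, and the counts below are description only. At 15 islands pESC was at least 10 points above female ESC. At 13 of these 15, pESC-PGCLC was above PGC, with a median difference of 7.28 points and a range from -2.12 to 13.3 points. Their median level was 49.4% in pESC, 44.7% in pESC-PGCLC, 37.3% in PGC, 16.7% in female ESC and 11.7% in ESC-PGCLC. PGC lay between female ESC and pESC, which the choice had set apart, and above ESC-PGCLC, in 15 of 15. The 15 shores chosen in the same way were all higher in pESC-PGCLC, by a median of 6.78 points. Shores and islands of a gene share sequence, and several of these shores lie at the same gene, as at Zrsr1 and Gnas. At the other 7 islands of these genes, 4 were higher and 3 lower, with a median of 0.21 points, and of the other 11 shores 6 were higher and 5 lower, with a median of 1.99 points.

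Few regions were measured at genes methylated on the paternal allele, and they give no contrast with the genes above. Of 5 listed, 3 had a measured region at the start, all below 5% in both libraries. Rasgrf1, a Ras exchange factor gene, had 2.35% in PGC and 2.14% in pESC-PGCLC, Zdbf2 1.61% and 1.98%, and Dlk1, a ligand related to Notch ligands, 1.47% and 2.12%. An inner island of Dlk1 (chr12:109459744-109460028) had 23.5% and 22.4%, and those of Zdbf2 2.29% and 3.13% (chr1:63248289-63248615) and 5.91% and 6.22% (chr1:63309157-63309711). Whether any of these islands overlaps a known paternally marked region was not examined, so no statement is made about those regions.

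Genes of the germline programme stood close in both libraries, as most regions did, with no common direction. Of 82 genes in 3 lists, 43 had a region, and 22 of these had a mean of at least 10% over the stem lines. Among the 22, 9 were higher and 13 lower in pESC-PGCLC, 19 were within 5 points, and the median difference was -0.88 points. Their medians were 28.7% in PGC, 29.2% in pESC-PGCLC, 34.2% in ESC-PGCLC, 32.8% in pESC and 40.8% in female ESC. The methylated genes as a whole had the opposite balance, with 65.3% of the 415 higher in pESC-PGCLC. How many of the 415 were within 5 points was not counted. Over all regions, most of them little methylated, the share within 5 points was 98.1% in CGIs and 89.2% in shores.

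Meiotic chromosome genes were measured for 18 of 30 members, 8 higher and 10 lower, with a median difference of -0.20 points. Sycp3, a component of the chromosome axis, had 41.2% in PGC and 45.4% in pESC-PGCLC, and Syce3, of the synaptonemal complex, 33.7% and 38.7%. Sycp1, the transverse filament of that complex, was slightly lower in pESC-PGCLC, at 23.2% and 21.8%, as was Sycp2, at 17.1% and 14.3%. Stra8, a regulator of entry into meiosis, had 35.0% and 34.2%, Hormad1, an axis protein gene, 13.8% and 10.1%, and the cohesin gene Smc1b 13.0% and 11.6%. Majin, which ties telomeres to the nuclear membrane, had the widest gap of the measured members, with 26.9% in PGC and 16.0% in pESC-PGCLC. It was at 14% in pESC and 13.3% in ESC-PGCLC but at 27.8% in female ESC. It was the only 1 of the 43 germline genes at least 10 points apart, against 0.0742% of all genes with a region that were lower by that much and 1.20% of the 415 methylated ones. Mei1, of the same list, is not among the 43. The shore inside it, named above, had a wider gap, with 43.3% in PGC and 19.8% in pESC-PGCLC.

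The piRNA pathway and germ granule genes were measured for 16 of 28 members, 8 higher and 8 lower, with a median difference of 0.06 points. Tudor domain genes went both ways. The shore tied to Tdrd1 had 49.2% in PGC and 57.6% in pESC-PGCLC. Another shore of Tdrd1, which overlaps its promoter windows (chr19:56824155-56826155), was closer, at 40.5% and 43.0%. The shore of Tdrd12 had 51.8% and 44.2%, and that of Tdrd6 17.0% and 12.3%. The helicase gene Mov10l1 (49.1% and 53.3%), the cochaperone gene Fkbp6 (43.1% and 46.3%) and the testis bromodomain gene Brdt (59.9% and 62.9%) were higher in pESC-PGCLC. Dazl, an RNA-binding protein of germ cells, had 16.3% and 18%, and Mael, which acts in transposon silencing, 22.9% and 21.8%. Slc25a31, a mitochondrial carrier gene of the germline, had 36.2% and 32.8%, and Rpl10l, a ribosomal protein retrogene, 20.2% and 19.3%. Ddx4, the germ cell helicase known as Vasa, was just under the 10% line in the stem lines, with 10.2% in PGC and 9.20% in pESC-PGCLC.

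Testis-expressed genes were measured for 9 of 24 members, 3 higher and 6 lower, with a median difference of -0.76 points. Dpep3, a dipeptidase gene, had 54.4% in PGC and 59.3% in pESC-PGCLC, and Tuba3a, a tubulin gene, 30.6% and 32.3%. The X-linked homeobox gene Rhox13 had 25.3% and 21.4%, and Taf7l, an X-linked subunit of TFIID, 26.9% and 26.1%. Dpep3, Tuba3a and Mov10l1 were at 69.2%, 42.5% and 63.2% in ESC-PGCLC. Of the 22 germline genes above 10%, ESC-PGCLC was above PGC in 21, the exception being Majin. Methylated CGIs as a whole had the same order by mean. There ESC-PGCLC minus PGC was 0.85 points at 20 to 40% in female ESC, 5.13 at 40 to 60% and 8.76 at 60 to 80%. At 5 to 20% it was -0.36 points. The share of all methylated genes with this order was not counted, so whether it is particular to germline genes was not tested.

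**Figure D4:**
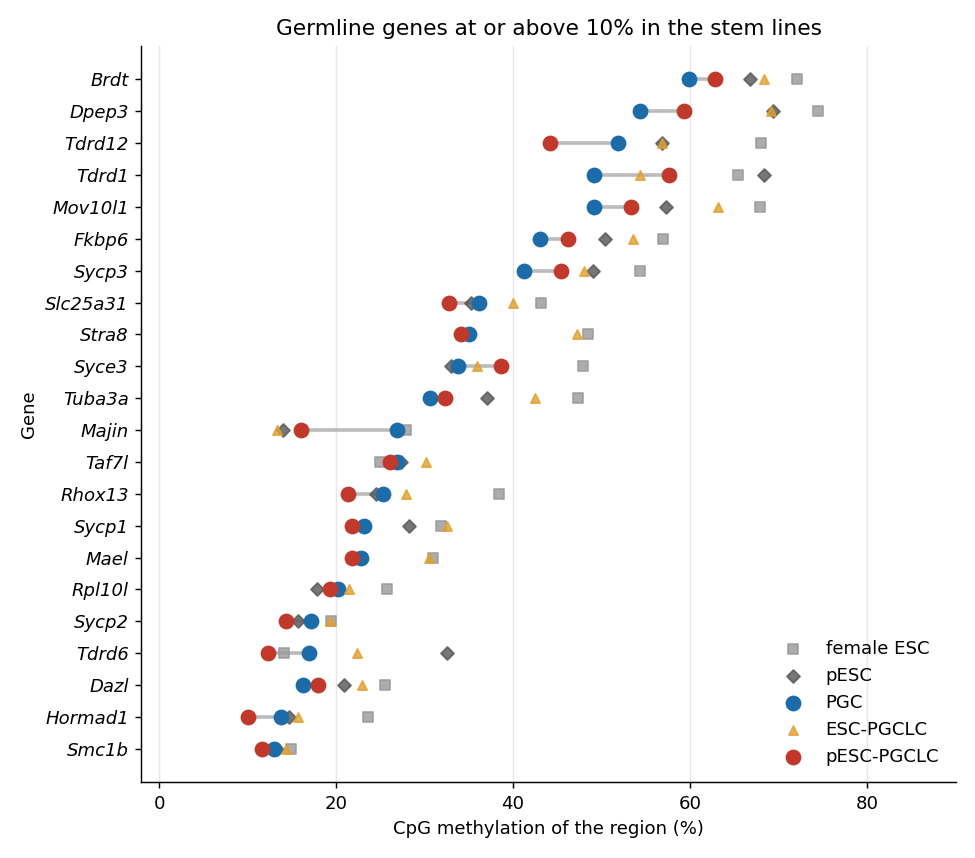
CpG methylation (%, horizontal axis) of the region at each of the 22 germline genes with at least 10% in the stem lines (vertical axis, ordered by PGC), with 1 point per library and a grey bar from PGC to pESC-PGCLC. Most bars are short, 19 of 22 spanning less than 5 points, and the longest belongs to Majin (26.9% in PGC, 16.0% in pESC-PGCLC).

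Sequence motifs in the promoter windows were counted on both strands, as letters only. Counts take 1 window per gene, the earliest listed that overlaps a measured region, and such a window was found for 11 maternally methylated imprinted genes, 13 meiotic genes and 12 piRNA genes. TGCCGC, the core of the site bound by ZFP57, which protects imprints, was found in 5 of the 11 imprinted windows and in 11.6% of all 32851 windows. Of the printed windows, Nap1l5 holds 2 matches, Plagl1 and Dazl 1 each, and the others none. CACGTG, an E-box, was found in 6 of the 12 piRNA windows and 4 of the 13 meiotic ones, against 7.15% of all, and in 3 of the 11 imprinted ones. Sycp3 holds 2 such boxes. TCCCGC, the core of the E2F6 motif, was found in 9 of the 13 meiotic, 6 of the 12 piRNA and 5 of the 11 imprinted windows and in 20.0% of all. Windows with a measured region are rich in CpG, with medians of 17 CpG in the imprinted, 18 in the meiotic and 24.5 in the piRNA windows against 7 in all, and the shares were not adjusted for this. TGCCGC and TCCCGC end in the same letters, so matches on opposite strands can overlap, and CACGTG reads the same on both strands.

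Measured genes of DNA methylation, pluripotency, germ cell specification and the primed epiblast were nearly unmethylated in both libraries, except Dnmt3l. Of 12 writers and erasers of DNA methylation, 11 were below 5% in both, among them Tet3, an oxidising demethylase (2.46% in PGC and 3.68% in pESC-PGCLC), Tet2 (1.20% and 1.57%) and Tet1 (1.48% and 1.70%). The exception was Dnmt3l, which encodes a partner of the de novo methyltransferases, with its shore (chr10:78041410-78043410) at 23.7% and 30.3%. Pluripotency genes were measured for 7 of 15 members, all between 1.08% and 2.27%, the upper and lower values being those of Tfcp2l1 in the 2 libraries; Esrrb had 1.74% and 2.05%, Sall4 1.33% and 1.59% and Tbx3 1.39% and 1.58%. Germ cell specification genes were measured for 3 of 9, with Prdm1 at 2.50% and 1.85%, Prdm14 at 1.71% and 1.81% and Kit at 1.25% in both. Primed epiblast genes, 8 of 9 measured, lay below 5% in both, as in Eomes (1.22% and 1.67%), Fgf5 (1.92% and 2.32%), Mixl1 (1.35% and 1.74%) and T (1.12% and 1.47%).

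Genes that mark other cells that either library could hold were described in the same way. Of 16 gonadal somatic genes 12 were measured, and 9 of them, among them Sox9 (1.56% in PGC and 2.09% in pESC-PGCLC) and Foxl2 (1.37% and 1.62%), were below 5% in both. The other 3 were higher in pESC-PGCLC: Tcf21, a transcription factor gene of mesenchyme (shore at chr10:22819799-22821800), had 23.7% and 40.6%, Nr5a1, the nuclear receptor of gonad and adrenal, 56.3% and 64.0%, and Lhx9, a homeobox gene of the gonad, 40.5% and 48%. PGC was the lowest of the 5 libraries at each, with Lhx9 at 69.9% in female ESC, 59.3% in pESC and 55.5% in ESC-PGCLC. That order is not particular to these genes, since PGC also had the lowest mean of the 5 libraries in every region class. Emx2, also of the early gonad, had 2.95% and 3.88%. By at least 10 points 1 of 12 was higher, Tcf21, against 0.19% of genes with a region and 5.30% of the 415 methylated ones. Fibroblast genes, which stand for feeder cells, were measured for 4 of 9: Thy1 had 5.31% and 3.60%, Twist1 1.03% and 1.76%, Twist2 2.63% and 3.29% and Vim 1.09% and 1.31%. Trophoblast genes were measured for 6 of 9, with Gata3 at 1.62% and 3.61%, Tfap2a at 3.66% and 5.48%, Ascl2 at 1.41% and 1.94% and Eomes as above. Methylation of a gene is no count of cells, so what part other cells had in these levels was not tested.

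Hox genes, regulators of body axis patterning, followed the balance of all genes, and clustered protocadherins, adhesion genes of neurons, were more often lower in pESC-PGCLC. Of 39 Hox genes 36 were measured, 27 higher and 9 lower in pESC-PGCLC, with a median difference of 0.22 points. The widest gaps were at Hoxb8 (0.73% in PGC and 5.68% in pESC-PGCLC), Hoxb1 (2.59% and 6.45%), Hoxa9 (8.47% and 11.0%) and Hoxa6 (2.47% and 4.41%). The share of higher Hox genes is near that of all genes with a region, 69.2%. Of 57 protocadherins 25 were measured through 24 regions, 7 higher and 18 lower, with a median of -0.98 points. Pcdhga2 had 17.7% in PGC and a difference of -5.22 points, while the levels were 5.84% and 1.44% at Pcdha12, 7.39% and 3.30% at Pcdhga5 and 3.70% and 0% at Pcdhgb7. The median level of the protocadherins was 7.39% in PGC and 7.15% in female ESC, above 5.6% in pESC-PGCLC, 5.41% in ESC-PGCLC and 5.00% in pESC.

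The X chromosome went against the rest of the genome at islands. Its 363 CGIs averaged 4.50% in PGC and 4.11% in pESC-PGCLC, a difference of -0.39 points, and 61.7% of them were lower in pESC-PGCLC. Over 13845 autosomal CGIs the means were 3.36% and 3.56%, and 31.9% were lower. The 19 autosomes lay between 0.10 points (chromosome 16) and 0.36 points (chromosome 13), with 27.1 to 35.8% of islands lower, so X lay outside their range. The median X island had 2.24% in PGC, 1.84% in pESC-PGCLC, 1.62% in ESC-PGCLC, 1.58% in female ESC and 1.47% in pESC, so by median the PGC library was the highest of the 5. By mean, female ESC (4.51%) was level with PGC (4.50%). Shores of X were less apart from the autosomes, with a difference of 0.38 points over 391 shores against an autosomal range from 0.47 to 0.97 points. The stem lines are a female and a parthenogenetic line, and a share of male cells in the PGC library was not tested. Of the Y chromosome, 7 CGIs and shores are listed in PGC and 2 in each other library.

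Among X-linked genes, 327 of 966 had a region, 122 higher and 205 lower in pESC-PGCLC, and the median difference was -0.34 points. By at least 10 points 2 of the 327 were higher, against 0.19% of all genes with a region, and 1 was lower, against 0.0742%. Of the 415 methylated genes, 5.30% were higher and 1.20% lower by that much. Dlg3, a synaptic scaffold gene, had a shore at 24.0% in PGC and 53.8% in pESC-PGCLC, and Ezhip, an inhibitor of Polycomb complex PRC2, an island at 60.9% and 71.6%. Ebp, a gene of cholesterol synthesis, had a shore at 17.4% in PGC and 5.08% in pESC-PGCLC, and Yy2, a retrogene related to Yy1, an island at 12.9% and 3.48%. At Ebp and Yy2, named for the size of their difference from PGC, PGC was the highest of the 5 libraries.

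Repeats were higher in pESC-PGCLC in nearly all families. Of 293 families with at least 20 entries, 280 had a mean difference above 0 and 13 below it, with a median of 2.40 points and a range from -1.57 to 7.34 points. The families with the widest positive gaps were Lx2B (39.0% in PGC and 46.4% in pESC-PGCLC), L1MD (36.1% and 42.9%), RLTR13D3A1 (40.7% and 47.1%), MER58B (31.7% and 37.0%), RMER4B (33.7% and 38.7%) and AmnSINE1 (30.5% and 35.3%). These families have between 20 and 48 entries. The lowest were RMER21A (30.2% and 28.6%), L1MA6 (39.3% and 38.2%), L1MA4 (38.5% and 37.5%), RLTR9E (29.6% and 28.7%), L1MdTf_I (36.1% and 35.5%) and L1MdTf_II (35.5% and 35.0%).

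The young L1 elements, LINE retrotransposons that still move in the mouse, differed among their families. L1MdA had 48.4% in PGC and 51.2% in pESC-PGCLC over 6391 entries, of which 77.3% were higher in pESC-PGCLC. L1MdGf had 50.5% and 52.2% over 984 entries, and L1MdTf 44.9% and 45.5% over 1232 entries, of which 54.1% were higher. Within L1MdTf, the subfamilies I and II were lower in pESC-PGCLC: 119 of 200 entries of L1MdTf_I and 137 of 236 of L1MdTf_II were lower. At the 5' end of the consensus, where the L1 promoter lies, L1MdTf_I had 27.7% in PGC and 24.5% in pESC-PGCLC over 14 entries, and L1MdTf_II 30.7% and 28.2% over 18 entries. The corresponding entries of L1MdTf_III had 50.7% and 52.2%, and those of L1MdA_I 67.1% and 69.8%. L1MdTf_I and L1MdTf_II are also the subfamilies of L1MdTf with the lower methylation in all 5 libraries. Against PGC, ESC-PGCLC differed by 1.90 points over all of L1MdTf_I and by 2.18 points over all of L1MdTf_II, and at their 5' ends by -1.54 and 1.38 points; the comparisons share PGC.

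Retroviral elements followed the general shift. IAP elements, among the most methylated repeats of the mouse, had 63.0% in PGC and 65.3% in pESC-PGCLC over 935 entries. MERVL, an endogenous retrovirus of the early embryo, had 40.5% and 42.4% over 49 entries. The older L1MdF group had a difference of 2.79 points over 7366 entries, while L1MdN, with 229 entries, had 0.07 points and 44.5% of entries higher. A repeat entry is named by its family and its stretch of the consensus and has no genomic position, so whether it holds 1 copy or several cannot be told.

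**Figure D5:**
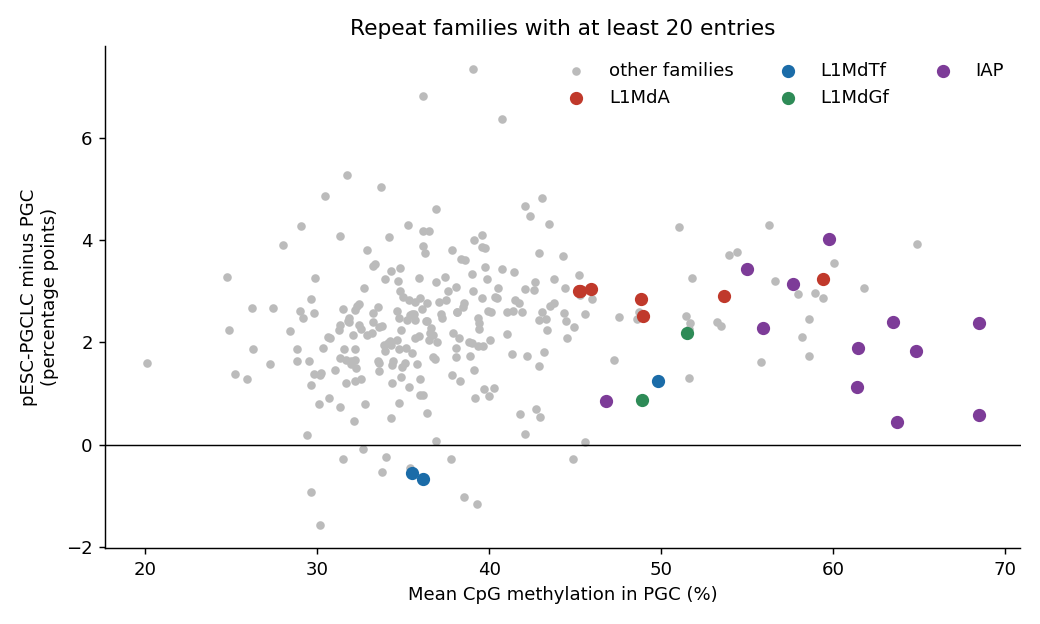
Mean difference in percentage points, pESC-PGCLC minus PGC (vertical axis), against the mean level in PGC (%, horizontal axis) for repeat families with at least 20 entries, 1 point per family. Of 293 families 280 lie above 0, and L1MdTf_I (-0.66 points) and L1MdTf_II (-0.55 points) lie below it.

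Cytosines outside CpG, a measure of incomplete conversion or of non-CpG methylation, were slightly higher in pESC-PGCLC. In the CHH context CGIs had 0.67% in PGC and 0.71% in pESC-PGCLC, and repeats 0.72% and 0.76%. In the CHG context CGIs had 0.75% and 0.79%, and repeats 0.94% and 1.03%. These differences, 0.04 points in CHH at CGIs, are below the CpG difference of 0.18 points at CGIs and far below that of 2.39 points at repeats.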

How the data were processed

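Per the file headers, the deposited values are a fraction, the methylation level of a region in a cytosine context (CG, CHG or CHH), 1 library per group. The submitters' processing notes name Bismark 0.16.3, Bowtie2 and the build mm10. Not given in the sources used here: tool roles, trimming, a coverage filter, region definitions and the counting base of coordinates. Without read counts no counting error can be given. The text prints each deposited fraction times 100, in percent.

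CG regions listed in all 5 libraries were joined in Python 3.11.15 (pandas 2.3.3, numpy 2.4.6), and the difference, pESC-PGCLC minus PGC, was taken per region. Regions at least 25 points apart were counted, with no test; 10 and 40 points were alternatives. The counting rule was tested on simulated data. Promoter, UTR, exon and intron entries carry Ensembl IDs that the reference table does not pair with symbols, so these classes are given as counts and means.

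Genes were tied to the longest CGI, else the longest shore, within 1000 bp of a RefSeq start site (GRCm38.p6, the assembly of mm10), or of either gene end where no start site was given. This gave 12124 of 21902 genes a region, 9690 by a start site. Named are the measured imprinted genes with the islands at or inside them (most shores only in counts), 10 CGIs and 10 shores in each direction, germline genes with at least 10% in the stem lines, up to 4 members of other lists, and 6 repeat families in each direction with at least 20 entries. L1 entries count as 5' where they start by consensus position 1000 and end by 2000. Members and lists were chosen with earlier results of these data known. Figures were drawn with matplotlib 3.10.9.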

Additional observations from a re-analysis of the deposited data

Results flagged for a closer look

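CGIs and shores of the Y chromosome lie outside the comparison, which uses regions listed in all 5 libraries. In the library labelled PGC 7 of them are listed, against 2 in each of the other 4 libraries, which stem from a female and a parthenogenetic line. The signal is of listing alone, since depth is unknown, and the share of male cells in that library was not tested.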

How the results depend on the processing

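With 1 library a side there is no replicate spread, so a mean difference counted as kept where its sign held and it stayed within 1.5 times, and a count where it stayed within 1.5 times. No paired analysis was possible because each group has 1 library. Of 32 alternative class mean differences (regions common to the pair, CHH level subtracted, levels of exactly 0 or 100% left out, median for mean), 32 stayed above 0. Medians over regions were smaller than the means: 0.38 points in shores, 0.28 in promoters, 0.17 in 5' UTRs, 0.40 in exons and 0.90 in introns; the cause was not tested.

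Counts at 25 points moved with the threshold and the regions admitted. Among regions common to the pair, 4 CGIs were higher, 31 shores higher and 15 lower, 40 promoters higher and 23 lower, and 694 repeat entries higher and 437 lower. At 10 points, 27 CGIs were higher and 26 lower, 265 and 93 shores, 399 and 116 promoters, and 4279 and 1525 repeat entries. At 40 points 0 CGIs were lower, 4 shores higher and 0 lower, 1 promoter higher and 1 lower, and 88 repeat entries higher and 34 lower. With the shift of each class taken out as 1 factor, 11 shores were higher and 9 lower, and 10 promoters higher and 10 lower. Without levels of exactly 0 or 100%, 1 CGI and 103 repeat entries were lower, and without CGIs of at most 400 bp, 0 CGIs.

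Further alternatives were chosen after seeing the data. The X island difference stayed below 0, from -0.43 to -0.63 points, as did L1MdTf_I, from -0.57 to -2.78 points, and L1MdTf_II, from -0.58 to -2.63 points, the far value of each with the class shift taken out. With regions placed at either end of every gene, the imprinted median fell to 1.59 points from 3.01 and that of paternally marked genes to 0.22 from 0.36, and the piRNA median turned to -0.0823 points from 0.0594. Depth, which limits levels of short or sparsely listed regions, is unknown.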
